A study of Mus musculus with 4 samples.

Results

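Cadherins and protocadherins are calcium-dependent adhesion proteins of the cell surface, and their transcripts were read here in Purkinje cells, the large inhibitory neurons that carry the output of the cerebellar cortex. The members were the genes named Cdh followed by a number, or with names starting Pcdh, that had an Affymetrix probe set annotated to that gene alone. There were 56 such genes of 18193 named on the arrays, 21 cadherins and 35 protocadherins, measured by 101 probe sets of 45037. The RefSeq table of the mouse lists 93 genes with such names. The 37 without a probe set of their own were 14 alpha and 21 gamma protocadherins, Cdh12 and Cdh24, and they were not analysed here as members.

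The samples were laser captures of Purkinje cells from frozen sagittal cerebellar sections of intact male C57BL/6J mice aged 8 weeks. The 4 samples make up 1 group, with 2 taken per animal from 2 animals, and are called 1-1, 1-2, 2-1 and 2-2 after animal and sample. All were untreated, no other group was analysed here, and the labels do not say whether the samples of 1 animal were separate captures. The design therefore allows only a comparison of 2 individuals, whose tests measure only the spread between these samples, which may be technical. A capture may also hold pieces of neighbouring cells, and fewer cells of a type cannot be told apart from less RNA per cell.

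Levels are quantile-normalized signals on the log2 scale, with 1 unit standing for a doubling, and means ± SD are over 2 animals. Each gene was read from its probe set with the highest mean. Probe sets respond differently to the same amount of RNA, so an order of signals between genes is not an order of transcript amounts. The bound against which a gene was read was set on each array by 53 genes specific to organs other than brain, at the 95th percentile of their signals. It was 5.29 in sample 1-1, 5.03 in 1-2, 5.09 in 2-1 and 5.43 in 2-2. Of all named genes, 32.9% lay above it on all 4 arrays. With so few arrays the precision of all these values is limited.

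The captures carried Purkinje cell transcripts, with 10 of 10 measured markers above the bound on every array, and those of some neighbours. Markers of Bergmann glia and astrocytes were above it in 11 of 12 cases, of granule cells in 5 of 9, of interneurons in 4 of 8 and of oligodendrocytes in 3 of 9. The 4 interneuron markers included Gad1 (12.13 ± 0.12), which does not tell interneurons from Purkinje cells, as both are inhibitory neurons. Markers of vessels, microglia and choroid plexus or meninges passed in 1 case each, of 11, 8 and 9. Mean marker levels ran over the samples from 11.86 to 12.05 for Purkinje cells, 8.60 to 8.98 for glia, 5.79 to 7.03 for granule cells and 4.23 to 6.10 for oligodendrocytes. The part of these other cells in the levels below was not tested.

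Classical cadherins hold cells together through their outermost repeat, and their inner tails bind p120-catenin and beta-catenin, which reach the actin skeleton through alpha-catenin. Protocadherins lack that tail. The alpha, beta and gamma protocadherins lie in clusters from which single neurons use different small sets of genes, and the gamma proteins are known for keeping the dendrites of 1 mouse Purkinje cell from crossing each other. The delta protocadherins are single genes with roles in axon growth and synapses.

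Above the bound on all 4 arrays were 14 of the 56 members (25.0%), against 32.9% of all named genes. They were 3 of 21 cadherins (14.3%) and 11 of 35 protocadherins (31.4%). Without sample 2-1, with all remaining arrays required, the cadherins numbered 5, beside 34.7% of all genes. Another 11 members passed on 1 to 3 arrays and 31 on none. The protocadherin share lay close to that of all genes and the cadherin share below it, and as the members are a list, no test was made of either. The median level was 3.46 over the cadherins and 5.01 over the protocadherins, beside 4.24 over all named genes.

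**Figure D1:**
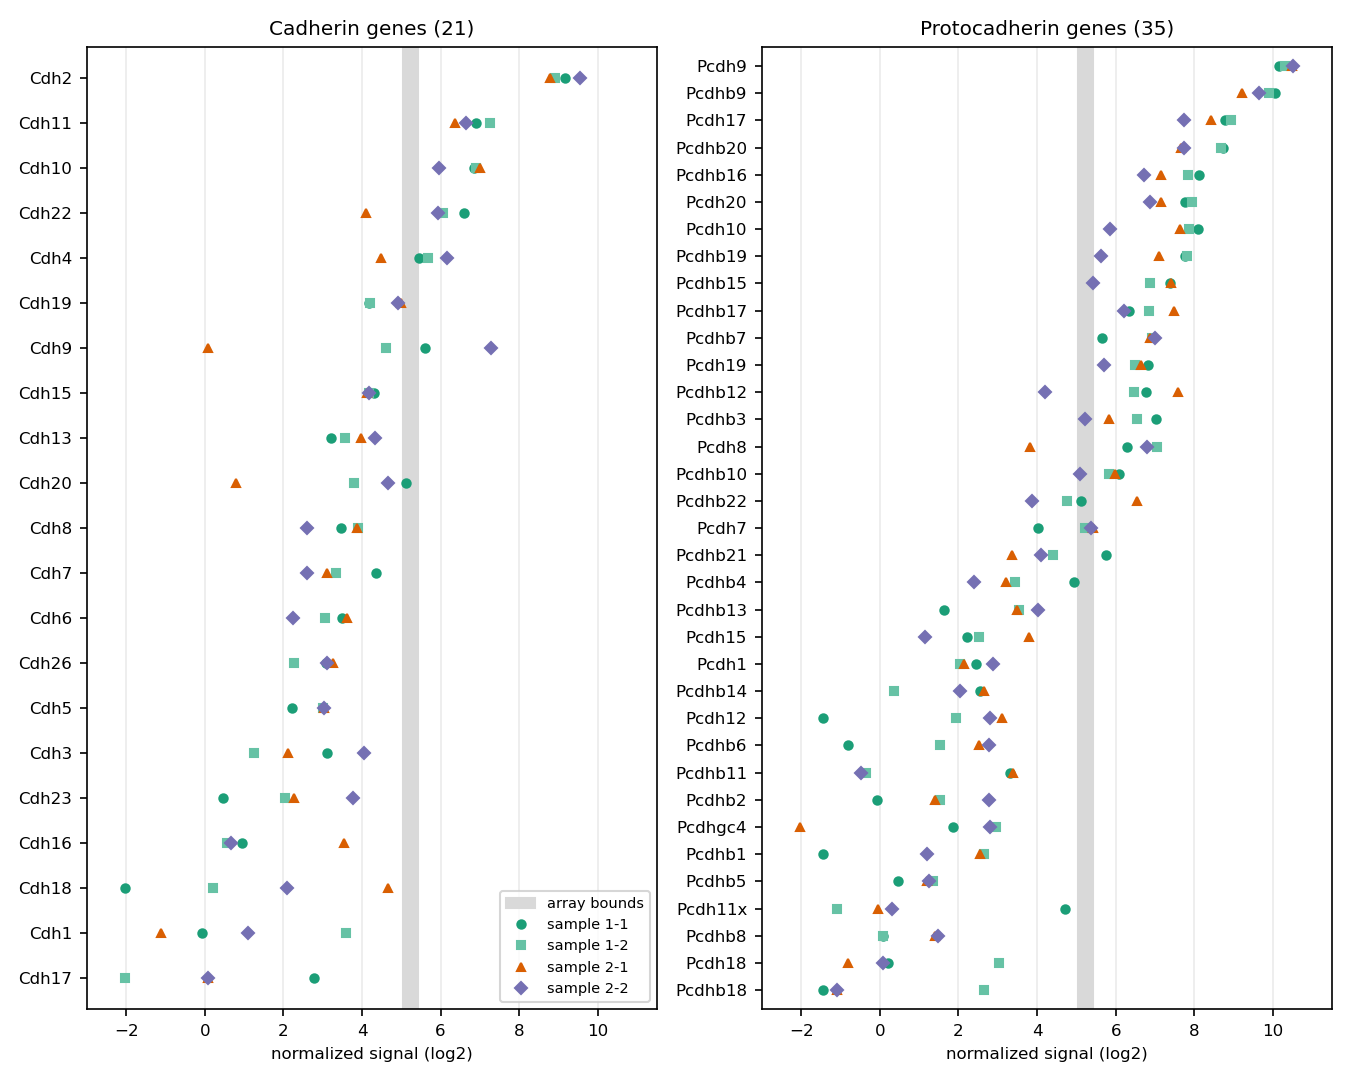
Normalized log2 signal (horizontal axes) of each cadherin and protocadherin gene in 4 Purkinje cell samples (symbols), ordered by mean. The grey band spans the background bounds of the 4 arrays, 5.03 to 5.43, and 3 cadherins and 11 protocadherins lie above each array's own bound in every sample.

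Among the type I cadherins, Cdh2, which encodes N-cadherin, the classical cadherin of neurons and glia, was far above the bound. Its level was 9.15, 8.92, 8.78 and 9.55 in samples 1-1, 1-2, 2-1 and 2-2, a mean of 9.10 ± 0.09 (SD, n = 2 animals). The animals overlapped, and the deposited signal in 2-2, 977, was the highest beside 407 to 471 in the others. A second probe set of Cdh2 read much lower, at 6.14, 5.73, 7.47 and 4.98, and fell under the bound in 2-2. Cdh4 (R-cadherin) lay close to the bound at 5.46, 5.67, 4.48 and 6.16, under it in sample 2-1 only.

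The other type I cadherins stayed under the bound on every array. Cdh15, the M-cadherin of skeletal muscle, was at 4.20 ± 0.05 with nearly equal values of 4.30, 4.17, 4.13 and 4.19. Cdh3 (P-cadherin) had a mean of 2.63 and Cdh1, the E-cadherin of epithelia, of 0.88, with ranges over the samples of 2.81 and 4.70.

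Of 11 type II cadherins, Cdh11 and Cdh10 passed on all 4 arrays. Cdh11, first known from bone-forming cells, was at 6.91, 7.25, 6.37 and 6.64, or 6.79 ± 0.40 (SD, n = 2 animals), and both its probe sets passed on every array. Both samples of animal 2 were below both of animal 1 on the brighter of them, but not on the other (6.48, 7.24, 5.82 and 7.14). Cdh10, a cadherin of brain neurons and vessels, was at 6.84, 6.90, 7.01 and 5.97, or 6.68 ± 0.27. Sample 2-2 stood apart from 3 nearly equal values. The remaining 3 probe sets of Cdh10 were under the bound on every array, with 17.2 as their highest deposited signal beside 84.6 to 144 on the first.

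Cdh22 and Cdh9 were above the bound in some samples only. Cdh22 was at 6.59, 6.06 and 5.94 in samples 1-1, 1-2 and 2-2 and at 4.09 in 2-1, where it fell below. Cdh9, in mice a recognition cue of hippocampal synapses, was the most uneven member, at 5.59 and 4.60 in animal 1 and at 0.09 and 7.27 in animal 2. Its deposited signals in animal 2 were 1.1 and 207, so the samples of 1 animal lay at opposite ends of its range of 7.18. That range is a measure of 1 probe set in 4 captures.

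The other 7 type II cadherins, Cdh5, Cdh6, Cdh7, Cdh8, Cdh18, Cdh19 and Cdh20, were under the bound in all samples. Cdh19 had the highest mean of them, with values of 4.19, 4.21, 4.98 and 4.92. Cdh5, the VE-cadherin of endothelium, lay at 2.22 to 3.04. Of the 11 vessel markers, Rgs5 passed on all arrays, 4 passed on some, namely Slco1a4 on 3, Abcb1a and Cldn5 on 2 each and Flt1 on 1, and 6 passed on none, Pecam1 and Tie1 among them. Cdh18 ran from -2.03 to 4.67.

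Of the remaining numbered cadherins 0 of 5 passed on any array. Cdh13, the T-cadherin held on the membrane by a lipid anchor, was the brightest of them at 3.21, 3.57, 3.97 and 4.32. Cdh23, part of the tip links of hair cells, had a mean of 2.14, and the kidney and gut cadherins Cdh16 and Cdh17 had means of 1.43 and 0.23. Cdh26 had a mean of 2.94.

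The single protocadherin genes passed in 5 of 12 cases (41.7%). Pcdh9, a delta-1 protocadherin, gave the steadiest bright signal of the members, at 10.16, 10.30, 10.47 and 10.52, a mean of 10.36 ± 0.19 (SD, n = 2 animals). Its deposited signals were 975, 1089, 1520 and 1885. Both samples of animal 2 were higher, by 0.26 ± 0.14 (SE, adjusted p = 0.420, limma). A second probe set passed too, at 8.96, 8.96, 9.04 and 8.19, and did not keep that order. The third was under the bound on every array, at -0.81, -1.53, 3.46 and 3.03.

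Pcdh7, of the same delta-1 class, lay around the bound at 4.03, 5.22, 5.41 and 5.36, above it in 1-2 and 2-1. Pcdh1 (2.38 ± 0.20) and the X-linked Pcdh11x (0.97 ± 1.19) were under it throughout.

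Among 5 delta-2 protocadherins, Pcdh17, Pcdh10 and Pcdh19 passed on all arrays. Pcdh17, which in mice organizes synapses of the basal ganglia, was at 8.78, 8.94, 8.42 and 7.73, or 8.47 ± 0.55 (SD, n = 2 animals). Its second probe set was at 6.59, 7.41, 6.06 and 2.40. On both probe sets the samples of animal 2 were below those of animal 1 and sample 2-2 was lowest.

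Pcdh10, whose tail binds the Nap1 protein of the WAVE actin complex, was at 8.09, 7.87, 7.64 and 5.85, or 7.37 ± 0.87 (SD, n = 2 animals). Another of its 6 probe sets passed in all samples, at 6.94, 7.28, 6.18 and 6.26, and 4 passed in none. Animal 2 was below animal 1 on both of the probe sets that passed. Pcdh19, X-linked and in humans mutated in an epilepsy of girls, was at 6.82, 6.50, 6.63 and 5.71, or 6.41 ± 0.35. It passed by 0.28 in its closest sample, 2-2, and its other probe sets passed in none.

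Pcdh8, an activity-regulated protocadherin that in rat neurons draws N-cadherin into the cell, was at 6.29, 7.06 and 6.80 in samples 1-1, 1-2 and 2-2 and at 3.82 in 2-1. That probe set can bind several transcripts. The other one of Pcdh8 read 2.22, 5.09, 3.65 and 5.53. Pcdh18 was under the bound in all samples at 0.63 ± 1.40.

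Pcdh20 was at 7.75, 7.94, 7.16 and 6.86, or 7.43 ± 0.59 (SD, n = 2 animals), with animal 2 below animal 1. Its second probe set was under the bound in every sample. Pcdh15, the tip link partner of Cdh23, and Pcdh12, known from endothelium, had means of 2.42 and 1.60 and passed in none.

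**Figure D2:**
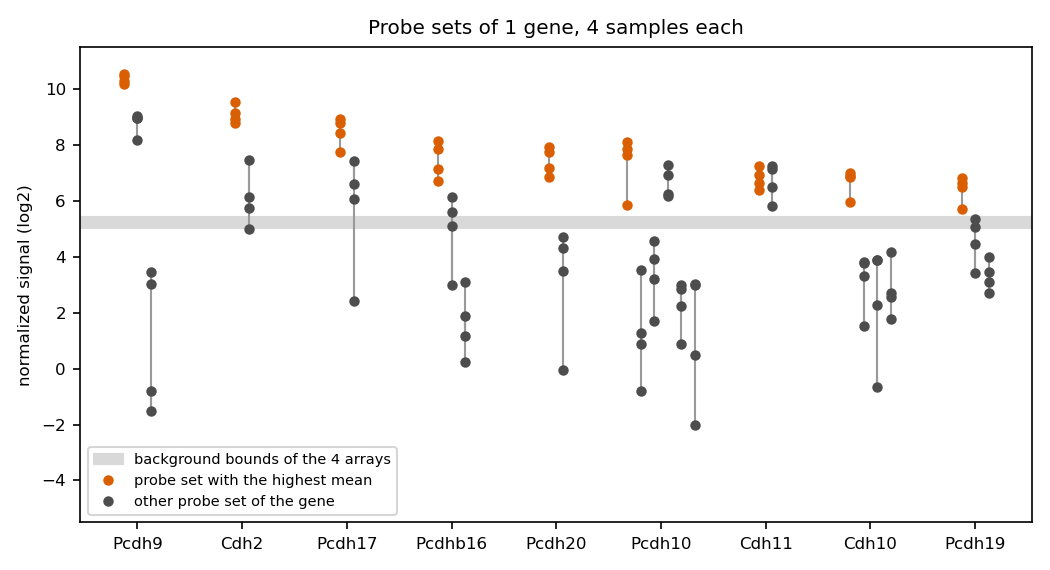
Normalized log2 signal (vertical axis) on each probe set of the 9 members that had several probe sets and were above the bound in all samples, with 1 point per sample. Only Cdh11 had every probe set above the bound on all 4 arrays, and 6 of the 9 genes had a probe set under it on all 4.

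Pcdh8, Pcdh17, Pcdh20 and Pcdh9 follow each other on mouse chromosome 14. In the RefSeq annotation 1 protein-coding gene, Olfm4, lies between Pcdh8 and Pcdh17. Between Pcdh17 and Pcdh20 there are 2, Diaph3 and Tdrd3, and between Pcdh20 and Pcdh9 there are 0. The bases just upstream of their starts are shown for the 3 of these genes that passed the bound on all arrays, since their promoters differed. Each is 250 bases, 5′ to 3′ on the strand of the gene, from RefSeq's annotation of GRCm38.p6, with every CG pair in capitals. Pcdh17 lies on the plus strand at chr14:84443313-84443562, Pcdh20 on the minus strand at chr14:88471397-88471646 and Pcdh9 on the minus strand at chr14:93890680-93890929.
Pcdh17: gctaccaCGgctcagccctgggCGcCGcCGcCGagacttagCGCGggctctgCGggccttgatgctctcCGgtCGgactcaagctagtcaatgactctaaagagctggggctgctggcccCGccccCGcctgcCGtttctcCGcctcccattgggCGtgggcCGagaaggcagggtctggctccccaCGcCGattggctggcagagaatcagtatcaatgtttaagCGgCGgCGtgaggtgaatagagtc
Pcdh20: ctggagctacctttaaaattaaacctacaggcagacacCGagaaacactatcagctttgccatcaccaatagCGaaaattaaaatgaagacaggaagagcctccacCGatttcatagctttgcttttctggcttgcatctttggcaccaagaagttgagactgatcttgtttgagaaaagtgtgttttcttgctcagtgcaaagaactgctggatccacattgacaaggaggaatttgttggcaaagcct
Pcdh9: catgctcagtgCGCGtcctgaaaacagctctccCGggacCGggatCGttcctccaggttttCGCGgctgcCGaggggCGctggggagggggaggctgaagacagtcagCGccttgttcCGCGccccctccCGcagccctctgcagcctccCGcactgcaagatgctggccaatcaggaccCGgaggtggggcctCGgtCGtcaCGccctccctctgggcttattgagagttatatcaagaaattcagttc

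Pcdh17 has 21 CG pairs in this stretch, Pcdh9 has 18 and Pcdh20 has 3. Pcdh8, which missed the bound in sample 2-1, has 11. Such a stretch was counted for 20 members that the table held, with the first listed start taken for each. The 26 members on chromosome 18 were left out, which are the clustered genes, Cdh2, Pcdh1 and Pcdh12. The median was 17 CG pairs over 6 members above the bound on all arrays (2 to 22), 9 over 4 members above it on some (6 to 30) and 7 over 10 members above it on none (0 to 23). Over 27025 genes of the table it was 6. Cdh10 passed with 2 pairs and Pcdh18 did not with 23, so the ranges overlapped almost fully. This is a description of letters in a window.

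All 22 beta protocadherin genes were measured, and 6 of them (27.3%) were above the bound on all 4 arrays, 6 on some and 10 on none. The genes that passed were scattered over the cluster, with Pcdhb7 and Pcdhb9 in its first part and Pcdhb16, Pcdhb17, Pcdhb19 and Pcdhb20 in its last. Pcdhb18, between the latter pairs, was at -0.25 ± 1.20 and Pcdhb8, between the former, at 0.77 ± 0.96. Beta genes are near copies of each other and have a single exon each. Their probe sets may share signal, so that a level given to 1 gene is uncertain.

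**Figure D3:**
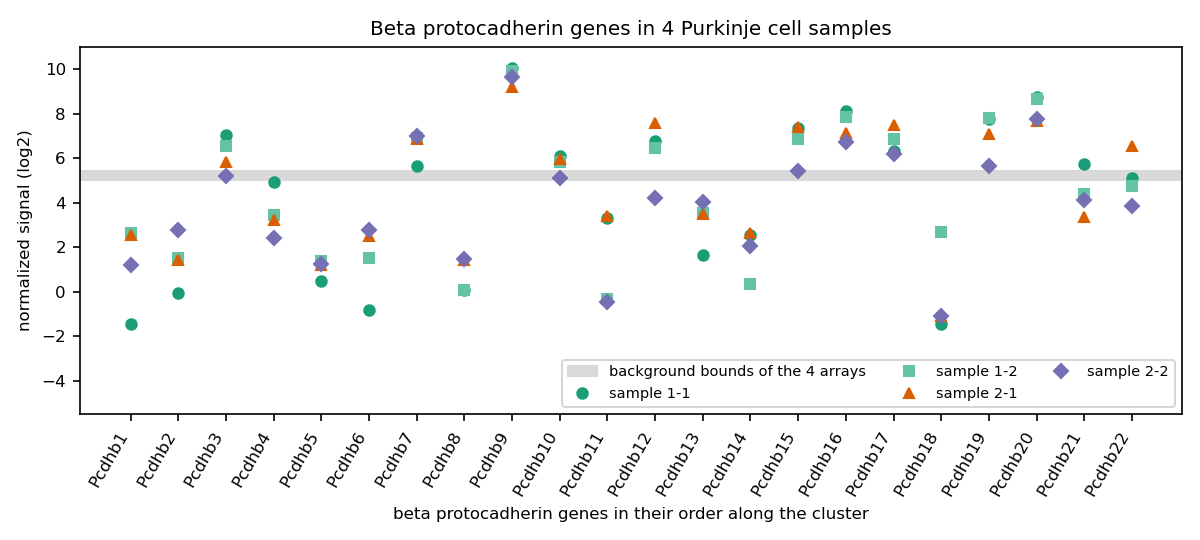
Normalized log2 signal (vertical axis) of the 22 beta protocadherin genes in 4 samples (symbols), placed in their order along the cluster at equal steps. Pcdhb9 stands highest, at 9.21 to 10.05, the other 5 genes above the band in all samples lie at 5.63 to 8.73, and genes at background lie between them.

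Pcdhb9 was at 10.05, 9.91, 9.21 and 9.65, or 9.71 ± 0.39 (SD, n = 2 animals), with deposited signals of 901, 818, 643 and 1039. Pcdhb20 was at 8.73, 8.67, 7.67 and 7.74, or 8.20 ± 0.71. In both genes the 2 samples of animal 2 were below those of animal 1 after normalization. In Pcdhb20 the samples of each animal nearly coincided. On deposited signals the animals overlapped in Pcdhb9, with sample 2-2 highest.

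Pcdhb16 was at 8.13, 7.85, 7.14 and 6.72, or 7.46 ± 0.75 (SD, n = 2 animals), on 1 of its 3 probe sets. Pcdhb19 was at 7.76, 7.81, 7.11 and 5.63, or 7.08 ± 1.00. It passed the bound by 0.20 in sample 2-2, the narrowest margin of the members that passed. Animal 2 was again below animal 1 in both genes.

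Pcdhb17 was at 6.34, 6.85, 7.47 and 6.20 and Pcdhb7 at 5.66, 6.92, 6.88 and 6.99, with no split between the animals. The member nearest to the bound from the other side was Pcdhb15, at 7.37, 6.86, 7.40 and 5.41, which missed it in sample 2-2 by 0.02. Its probe set can bind several transcripts, and its other probe set was at background. Pcdhb3 (7.03, 6.53, 5.83 and 5.21), Pcdhb12 (6.76, 6.46, 7.58 and 4.19) and Pcdhb10 (6.09, 5.84, 5.98 and 5.09) also missed it in 2-2 only.

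Pcdhb22 and Pcdhb21 passed in 1 sample each, 2-1 and 1-1, at 6.55 and 5.76. Pcdhb1, Pcdhb2, Pcdhb4, Pcdhb5, Pcdhb6, Pcdhb8, Pcdhb11, Pcdhb13, Pcdhb14 and Pcdhb18 passed in none, with means from -0.25 to 3.50. The 1 gamma gene with its own probe set, Pcdhgc4, passed in none either (1.40 ± 1.42).

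The alpha protocadherins were read only by 6 probe sets annotated to 9 or 14 alpha genes at once, which are not members. Of these, 3 were above the bound in all samples. The brightest was at 10.41, 10.35, 10.03 and 10.66, or 10.36 ± 0.02 (SD, n = 2 animals), and the others at 7.27 ± 0.20 and 7.14 ± 0.46. All 3 were annotated to 14 genes, so they show alpha transcripts in the captures without naming a gene. The 3 annotated to 9 genes passed on 0, 0 and 1 arrays.

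Animal 2 was then set against animal 1. None of the 30 member probe sets tested was called by limma after Benjamini-Hochberg adjustment over 13139 probe sets (smallest adjusted p = 0.179), beside 0.183% of all probe sets. At an unadjusted p under 0.05 there were 8 member probe sets lower in animal 2 and 0 higher, beside 8.35% lower and 7.62% higher over all probe sets. The smallest p among those lower belonged to Pcdhb20, with means of 8.70 in animal 1 and 7.70 in animal 2 (SE of the difference 0.27, n = 2 samples per animal, adjusted p = 0.179 by limma), Pcdhb16 (-1.06 ± 0.35, adjusted p = 0.225) and Pcdhb19 (-1.42 ± 0.53, adjusted p = 0.273). Without sample 2-1 limma called 7 member probe sets and 1103 in all, and without 2-2 it called 3 and 1290. Among those higher in animal 2 the smallest p belonged to Pcdh9, given above, Pcdhb7 (0.65 ± 0.52, adjusted p = 0.589) and Pcdh7 (0.76 ± 0.80, adjusted p = 0.687).

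Most member probe sets had a negative difference, 23 of 30, beside 7047 of 13139 over all probe sets tested. Their median was -0.64, beside -0.05 over all. Some genes, such as Pcdh17, Pcdh10 and Pcdh9, entered with more than 1 probe set, so the 30 are not separate genes. On values as deposited the members' median was -0.10 and that of all probe sets 0.47, so the members again lay lower relative to the rest, and the split was 16 negative and 14 positive. Among 23 members above the bound on at least 2 arrays, both samples of animal 2 lay below both of animal 1 in 10 genes, beside 25.7% of all such genes. They lay above in 2, beside 21.3%. The 10 were Cdh11, Cdh22, Pcdh10, Pcdh17, Pcdh20, Pcdhb3, Pcdhb9, Pcdhb16, Pcdhb19 and Pcdhb20, and the 2 were Pcdh7 and Pcdh9. On deposited values these counts were 5 and 5, beside 7.56% and 48.4% of all genes. Those still lower were Pcdh20, Pcdhb3, Pcdhb16, Pcdhb19 and Pcdhb20, while in Cdh11, Cdh22, Pcdh10, Pcdh17 and Pcdhb9 the animals overlapped.

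**Figure D4:**
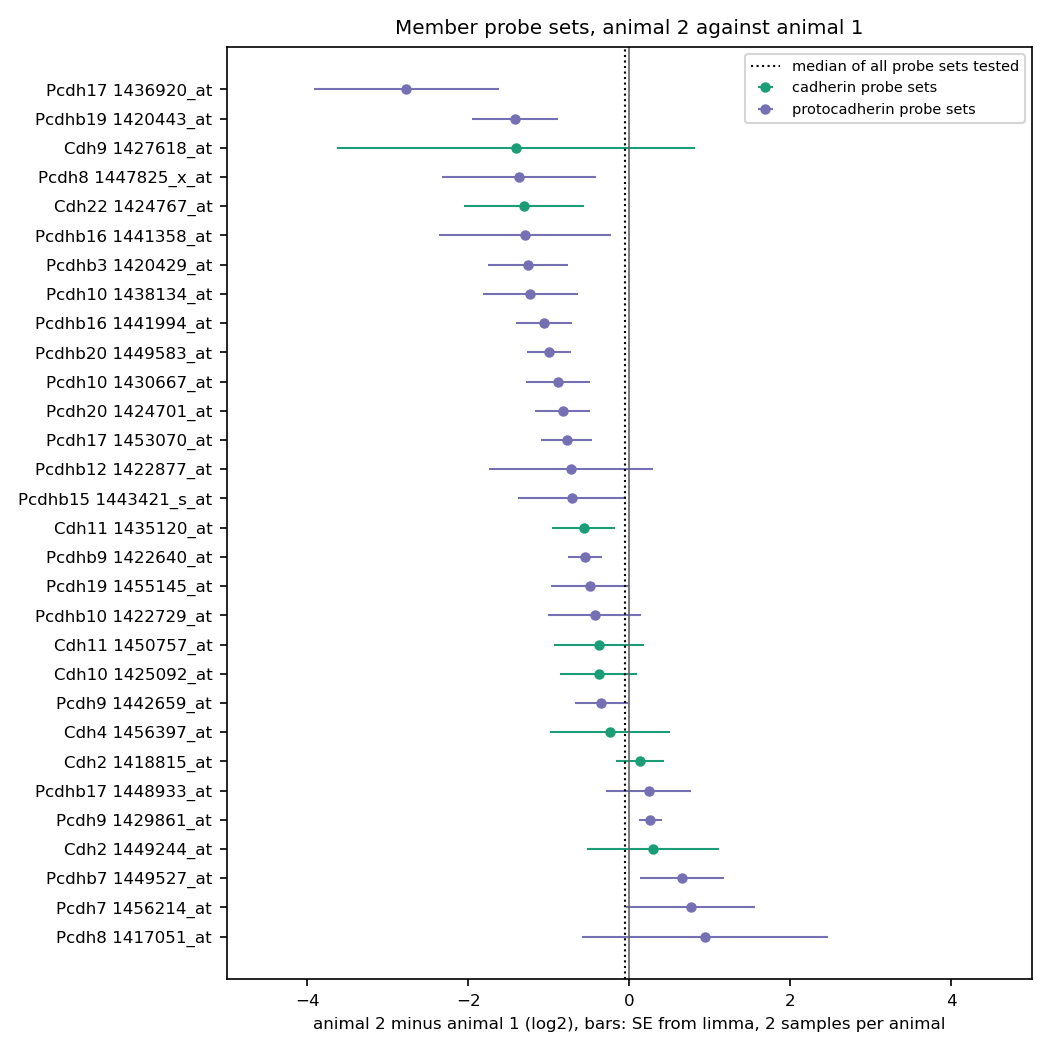
Difference of animal 2 from animal 1 on the log2 scale (horizontal axis) for the 30 member probe sets tested, with SE bars from limma over 2 samples per animal. Points to the left of 0 number 23 of 30, beside 7047 of all 13139 probe sets tested. The median of the 30 is -0.64, and the dotted line marks the median of all probe sets tested, -0.05.

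Of the marker genes, limma called 1 between the animals, the Purkinje gene Pcp2, which was higher in animal 2 by 0.57 ± 0.07 (SE, adjusted p = 0.0471). None of the granule cell markers was called. Among them Neurod1 differed by -1.97 ± 0.34 (SE, adjusted p = 0.0809), Zic1 by -1.29 ± 0.18 (adjusted p = 0.0552) and Gabra6 by -1.23 ± 0.28 (adjusted p = 0.137). The median difference over the 9 measured granule markers was -1.23, over 9 oligodendrocyte markers -1.06, over 12 glial markers -0.27 and over 10 Purkinje markers 0.07. It was -0.31 over 11 vessel markers, 0.13 over 8 interneuron markers, 0.27 over 9 choroid plexus or meninges markers and 1.18 over 8 microglia markers. Of the microglia markers 6 were under the bound in all samples. The 1 above it on all arrays, Csf1r, differed by -1.46 ± 0.38 and C1qb, above it on 2, by 1.54 ± 0.75. Clic6, the 1 choroid plexus or meninges marker above it on all arrays, differed by -0.29 ± 0.22. The other granule markers, Slc17a7, Pax6 and Zic2, were not tested between the animals. Slc17a7 and Pax6 had the higher mean in animal 2 and Zic2 in animal 1, but all were under the bound in all samples. So were 5 of the oligodendrocyte markers, Mog, Cldn11, Ermn, Mag and Sox10, while the 3 above it on all arrays differed by -0.69 (Cnp), 0.13 (Mbp) and 0.52 (Olig1). The part of granule cells or other neighbours in the members' differences was not tested.

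Sample 2-2 held the lowest value in 8 of the 14 members above the bound and 2-1 in 4, where over all genes above it the shares were 27.8% and 30.2%. Over 17 member probe sets above the bound in all samples, the samples of animal 1 differed by a median of 0.22 and those of animal 2 by 0.69. Across the animals the medians ran from 0.59 to 0.87, on both sides of the latter value. The same medians over 9234 probe sets were 0.24, 0.39 and 0.43 to 0.45.

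The catenins and other partners at the junction passed the bound on all arrays in 7 of 12 cases. Ctnnb1 (beta-catenin) was at 11.71 ± 0.12 (SD, n = 2 animals), Pkp4, a p120-like catenin, at 9.77 ± 0.41, and Ctnna1 and Ctnnd2, an alpha-catenin and delta-catenin, at 8.86 ± 0.58 and 8.39 ± 0.19. Arvcf (3.52 ± 1.02) and Ctnna3 (0.58 ± 0.90) were under the bound in all samples. The enzymes that cut cadherins passed in 7 of 10 cases. Psenen and Aph1b, parts of gamma-secretase, were at 10.23 ± 0.04 and 9.82 ± 0.29, the sheddase Adam10 at 9.78 ± 0.63 and the convertase Pcsk6 at 8.34 ± 0.23. Ncstn (3.24 ± 0.82) and Pcsk5 (2.94 ± 0.27) passed on no array.

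Partners of protocadherin tails passed in 8 of 10 cases. Nckap1, the Nap1 protein that binds Pcdh10, was at 10.31 ± 0.32 (SD, n = 2 animals), Pdcd10 at 9.81 ± 0.32, Marcks at 9.44 ± 0.24 and the WAVE complex gene Abi2 at 8.63 ± 0.44. The kinase gene Ptk2b (4.45 ± 0.46) passed on 1 array and Wasf3 (1.43 ± 0.45) on none. Genes that act on the choice of clustered promoters passed in 10 of 13 cases, among them the cohesin genes Wapl (9.84 ± 0.02), Rad21 (9.01 ± 0.16) and Stag2 (8.50 ± 0.74) and the chromatin gene Smchd1 (8.02 ± 0.45). Smc3 (5.79 ± 0.92) passed on 3 arrays, and the DNA methyltransferase gene Dnmt3b (2.35 ± 1.27) on none.

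Relatives of the cadherins outside the 2 name groups passed in 5 of 22 cases, namely Clstn2 (10.01 ± 0.42), Fat1 (8.27 ± 0.05), Clstn3 (8.21 ± 0.48), Celsr2 (6.69 ± 0.11) and Clstn1. All 3 calsyntenins, cadherins of the synaptic membrane, were among them. Cdhr3 (0.57 ± 0.66) and Cdhr2 (-0.25 ± 0.45) were under the bound in all samples. Between the animals, limma called 0 genes of these 5 lists in either direction (smallest adjusted p = 0.0859, Vcl, -1.94 ± 0.35).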

How the data were processed

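Amplified RNA of 4 laser captures, from an input of about 1 ng each per the labels' protocols, was hybridized to Affymetrix arrays. Each deposited value is a linear intensity of 1 probe set on 1 array. The submitters' processing notes name GCOS as the software. Its version, algorithm and scaling target were not given in the sources used here. Detection calls and scanner files were not used here, nor were protein sequences. The 64 control probe sets were left out, signals under 0.1 were set to 0.1, and log2 was taken. The arrays' means, trimmed by 2% at each end, differed by 46.6% of their average, above the 5% allowed, so quantile normalization in limma 3.58.1 (R 4.3.3) was used.

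Probe sets were named from the platform table, where 34945 had 1 symbol. RefSeq symbols needed 0 updates among the members. The bound used 53 of 60 listed genes, of which Apoa2, Krt10 and Tshb passed it on all arrays. Animals were compared by lmFit and eBayes (trend on), over probe sets that passed the bound on at least 2 arrays. The residual degrees of freedom were 2, and calls used an adjusted p below 0.05. The steps were run on simulated data with independent noise in each sample, so noise shared by samples of 1 animal was not covered. The outcome of that run is not given here. The members, lists and tests were chosen with earlier results of these data known. Values in every sample were given for members above the bound and those nearest to it, and for others named after their values were seen. Of each partner list the 4 brightest and 2 dimmest genes were named, and between animals the 3 member probe sets with the smallest p in each direction. Alternatives changed the bound, normalization, probe set choice, filter and samples. The other columns of the table numbered 0.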

Additional observations from a re-analysis of the deposited data

Results flagged for a closer look

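In 2 of the 14 members above the bound on all arrays, 1 sample lay apart from the other 3 by more than Dixon's 95% critical value for 4 samples. Over 5993 genes above the bound with a range to measure, 6.02% had such a sample. Chance gives about 1 such group in 20 where the 4 values are independent, and these were 2 samples from each of 2 animals. Cdh10 in sample 2-2 was at 5.97 beside 6.84 to 7.01. Pcdhb7 in sample 1-1 was at 5.66 beside 6.88 to 6.99. Each value comes from 1 probe set, and the cause was not tested.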

How the results depend on the processing

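With the bound at the 99th percentile, 2 cadherins, 6 protocadherins and 24 partner genes (37 as reported) were above it on all arrays, and 20.8% of all genes were. With at least 2 arrays required in place of 4, 6 cadherins and 17 protocadherins passed, beside 44.2% of all genes. With the median over probe sets the partner genes fell to 22, beside 21.5% of all genes. Leaving out single samples, with all remaining arrays required, gave 3 to 5 cadherins and 11 to 15 protocadherins, beside 33.5% to 35.6% of all genes. The cadherin count was highest without 2-1, where Cdh4 and Cdh22 had been lowest, and the protocadherin count without 2-2. Other normalizations and an offset of 16 left the counts of cadherins, protocadherins and partner genes as reported. These settings nearly keep the order of signals within an array, and the bound is a percentile on each array. The counts could therefore hardly change. Of 192 recomputed detection results of the named members, 173 kept their side, 11 were lost and 8 gained. The bound at the 99th percentile lost Cdh10, Pcdh10, Pcdh19, Pcdhb7, Pcdhb17 and Pcdhb19. The median over probe sets lost Cdh10, Pcdh10, Pcdh19, Pcdh20 and Pcdhb16, and no other setting lost any. Leaving out samples, requiring fewer arrays or renormalizing could hardly remove a member that had passed on all arrays.

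The count of member probe sets called between animals was 0 under every setting except 7 without sample 2-1, among them both of Pcdh17, and 3 without 2-2, among them Pcdhb9 and Pcdhb20, so it ran from 0 to 7 over single samples left out. With 1 sample left in animal 2, these fits take their residual spread from animal 1 alone. On deposited values both counts of members that did not overlap between animals were 5, beside 7.56% of all genes lower in animal 2 and 48.4% higher. With the median over probe sets 18 members were counted. Of these, 1 was higher in animal 2 and 7 were lower, beside 25.3% and 21.5% of all genes. The members' between-animal spread less that within, 0.26, was 0.02 on deposited values and 0.01 to 0.61 with 1 sample left out (0.01 without 1-1, 0.04 without 1-2 and 0.61 without 2-1). No paired analysis was possible because the samples form 1 group. Signal close to background limits the 42 of the 56 members that were not above the bound on all arrays. It also limits some of the 14 that were, as Pcdhb19 passed by 0.20 and Pcdh19 by 0.28 in the closest sample.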
